A study of Homo sapiens with 2 samples.

Results

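The genes examined here encode the carriers that bring glucose, amino acids and monocarboxylates such as lactate across cell membranes. They were chosen by name, as the protein-coding genes of GENCODE release 44 whose symbols begin with SLC1A, SLC2A, SLC3A, SLC7A, SLC16A, SLC38A or SLC43A. This gave 66 of 20046 protein-coding genes, and 308 other SLC genes served as a comparison. Names alone decide membership, so SLC2A4RG, a regulator of SLC2A4 transcription, and SLC7A6OS, a gene on the strand opposite SLC7A6, are among the 66 although neither is a transporter.

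The binding of RBMS3, an RNA-binding protein that prefers A- and U-rich RNA, was mapped with CLIP-seq in cells of MDA-MB-231, an established human triple-negative breast cancer cell line. The single group held 2 biological replicates of cells stably transduced with a lentiviral vector for RBMS3 with an N-terminal FLAG tag. They were irradiated at 254 nm with 400 mJ/cm2, which ties protein to the RNA it touches, and the complexes were recovered on beads against the tag. For replicate 2 the title was followed, since its other labels spell the line MDA-MB-232. The protein was therefore a tagged form supplied by a vector, on top of the cells' own RBMS3, and no control library was analysed here.

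The authors called sites on the pooled tags of both replicates, where a tag is a unique sequenced RNA fragment. Each site is a deleted base, read by the method as the place where reverse transcriptase skipped the remnant of the crosslinked protein, and its depth is given as the tags over it and, among these, the tags with the deletion. Replicate error is therefore unknown for every value, no test was made, and the 95% Wilson intervals of single sites cover counting error only. RNA levels were not measured in these libraries, so stronger binding and more abundant RNA cannot be told apart, and a gene without a listed site may be unbound, weakly bound or little expressed. All 5 genes taken as markers of this line (VIM, CD44, AXL, CAV1 and SPARC) had a site, beside 37.6% of all protein-coding genes. So did 2 of the 6 genes known to be low in it (GATA3 and KRT8, but not ESR1, PGR, ERBB2 or CDH1). SPARC had the deletion in 51 of 52 tags at its only site, GATA3 in 47 of 744 and KRT8 in 47 of 1085. These counts show only the presence of sites.

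SLC2A proteins (GLUTs) let glucose and related sugars down their gradient. SLC1A, SLC38A, SLC7A and SLC43A proteins move amino acids or, for some members, other solutes. SLC3A proteins are the heavy chains that carry SLC7A light chains to the membrane, and the best known SLC16A proteins (MCTs) export or import lactate with a proton. Tumour cells often depend on glucose and glutamine uptake, lactate export and cystine import, and mRNAs of such carriers are regulated in part through their 3′UTRs.

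The sequences around the main sites are given first, to show where in these mRNAs the deletions were called. Each line is the listed interval of 21 nt in hg38, read 5′ to 3′ on the transcript strand in DNA letters, with the deleted base at its centre and the run of equal bases that holds it in capitals. Which base of a run was lost cannot be known, and the lowest coordinate is listed. The first 8 lines are from the 4 genes with the most deletions, with a site of a second location for each.
SLC38A2, chr12:46358186-46358206, minus strand: aatacatgcTTaatcctgagt
SLC38A2, chr12:46358500-46358520, minus strand: aaattgtaTTTgcaataaaca
SLC2A1, chr1:42926256-42926276, minus strand: ttggttgtcAAtattaaatac
SLC2A1, chr1:42925952-42925972, minus strand: atacattcTTTatcttgacat
SLC7A11, chr4:138164101-138164121, minus strand: aataaacaTTTgatagtttac
SLC7A11, chr4:138167163-138167183, minus strand: gcgcgagacTTcatctcaaaa
SLC38A1, chr12:46183081-46183101, minus strand: acatagTTTTTaaacattaaa
SLC38A1, chr12:46187822-46187842, minus strand: catttctaTTTcttcttcatt
SLC7A1, chr13:29509479-29509499, minus strand: taccatacTTTatgttgtaaa
SLC7A5, chr16:87830035-87830055, minus strand: tttttaTTTTTaaagaaacac
SLC2A13, chr12:39755023-39755043, minus strand: taaaataattCattactcatt
SLC2A3, chr12:7919229-7919249, minus strand: aaaattctgAAtgtacacgac
SLC16A6, chr17:68267038-68267058, minus strand: gcaataaaTTTatggattttt
SLC43A3, chr11:57406976-57406996, minus strand: ggaataaTTTTatagaaaaat
SLC38A4, chr12:46764759-46764779, minus strand: aatgaacTTTTcaaatgacta
SLC38A9, chr5:55625851-55625871, minus strand: aaagtaggagAgtttgttgct
SLC3A2, chr11:62888792-62888812, plus strand: cagattatgaGtgaaccccca
SLC16A3, chr17:82239438-82239458, plus strand: tggaagatggAAAtaaacctg
SLC16A7, chr12:59789807-59789827, plus strand: taaattaaaaTTaaaataaaa
SLC1A5, chr19:46774897-46774917, minus strand: ttttttagcAAtaaaattgag

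RBMS3 sites were found in 25 of the 66 genes (37.9%), a share close to the 37.6% of all protein-coding genes with a site. For the other SLC genes it was 101 of 308 (32.8%). A site in an annotated 3′UTR was present in 22 of the 66 (33.3%), beside 31.8% of all protein-coding genes and 27.6% of the other SLC genes. With only sites whose deletion was in under 30% of the tags, the class that in these genes has deep coverage, the count was 18 of 66 (27.3%), beside 29.1% of all protein-coding genes. The share of these genes with a site was thus near the background. Where they differed from each other was in the number of sites and deletions per gene.

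**Figure D1:**
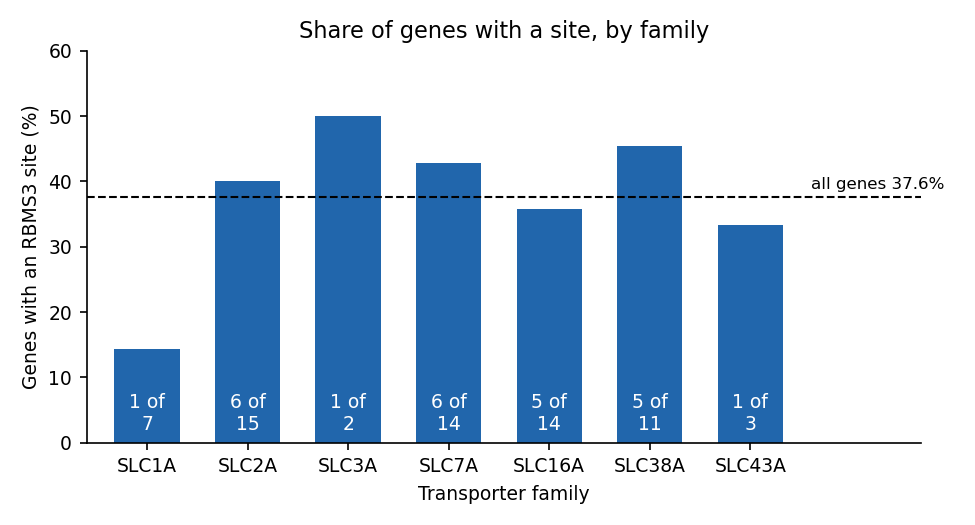
Share of the genes of each family (bars, %) with at least 1 RBMS3 site on the gene's strand, with the number of genes written in the bar and the share over all protein-coding genes as a dashed line at 37.6%. Of 7 SLC1A genes 1 had a site and of 11 SLC38A genes 5 did, and the families are too small to rank.

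Sites were spread over the families unevenly. SLC38A, which holds the sodium-coupled neutral amino acid transporters, had sites in 5 of 11 genes, 42 sites in all with 7340 deletions summed. SLC7A, with the cationic amino acid carriers and the light chains of the heteromeric exchangers, had sites in 6 of 14 genes, 34 sites and 4599 deletions. SLC2A had sites in 6 of 15 genes, 35 sites and 4029 deletions. SLC16A came to 5 of 14 genes, though with only 7 sites and 269 deletions. SLC1A, SLC3A and SLC43A each had 1 gene with a site, SLC1A5, SLC3A2 and SLC43A3, with 50, 62 and 128 deletions.

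Of the 66 genes, 41 had no site, and most of them are named here. In SLC1A they were SLC1A1, SLC1A2, SLC1A3, SLC1A4, SLC1A6 and SLC1A7, among them the glutamate transporters of brain. In SLC2A they were SLC2A2, SLC2A4, SLC2A5, SLC2A6, SLC2A7, SLC2A9, SLC2A10, SLC2A11 and SLC2A14, which include the glucose carriers typical of liver (SLC2A2) and of muscle and fat (SLC2A4). SLC3A1 and, in SLC7A, SLC7A3, SLC7A4, SLC7A6, SLC7A8, SLC7A9, SLC7A10, SLC7A13 and SLC7A14 had none. Nor did SLC16A5, SLC16A8, SLC16A9, SLC16A10, SLC16A11, SLC16A12, SLC16A13 and SLC16A14, the SLC38A genes SLC38A3, SLC38A5, SLC38A7, SLC38A8, SLC38A10 and SLC38A11, or SLC43A1 and SLC43A2. The representative transcripts (1 per gene, as the annotation marks them) had a median 3′UTR of 2044 nt in the 25 genes with a site and 1463 nt in the 41 without. By family, the genes with a site had the longer median in SLC2A, SLC7A and SLC38A. In SLC16A the medians were close (2044 and 2008 nt), and in SLC1A, SLC3A and SLC43A, each with 1 such gene, the order was reversed. The same split was not made over all protein-coding genes.

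A few genes held most of the signal. SLC38A2, SLC2A1, SLC7A11 and SLC38A1 had 80 of the 123 sites (65.0%) and 14094 of the 16477 deletions (85.5%), whereas 10 of the 25 genes had a single site. How far deletions gather in the leading genes over all protein-coding genes was not computed. Genes with a single site share rank 4876 by number of sites among the 7542 protein-coding genes with a site, so single sites were common everywhere. All 4 leading transporter genes had 10 or more sites, which makes 16.0% of the transporter genes with a site, beside 6.39% of all protein-coding genes with a site. By deletions summed over sites they ranked 54, 64, 71 and 79 among the 7542 protein-coding genes with a site. The median gene did not stand out, with 2 sites in the transporters and 2 over all such genes, and 85 summed deletions in the transporters beside 114.

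**Figure D2:**
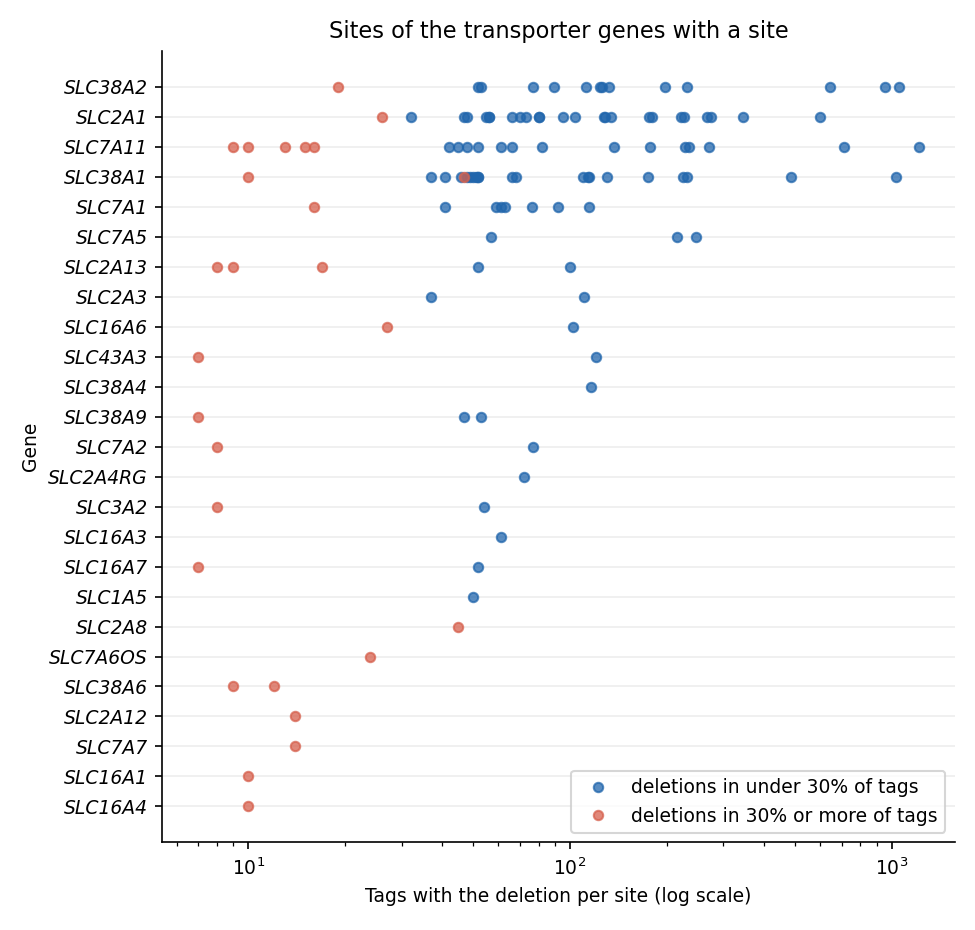
Tags with the deletion at each of the 123 sites (1 point per site, log scale) for the 25 transporter genes with a site, ordered by summed deletions and coloured by whether the deletion was in under 30% of the tags. SLC7A11, SLC38A2 and SLC38A1 reach 1214, 1052 and 1031 deletions at their strongest sites, and the last 7 genes have sites of the 30% or more class only.

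SLC38A2 (SNAT2, a sodium-coupled carrier of glutamine, alanine and other small neutral amino acids that cells induce when amino acids are scarce) had the most deletions, 3862 over 14 sites. The gene lies at chr12:46358188-46372773 on the minus strand. At its strongest site, position 46358196 in the 3′UTR and 8 nt before the end of the transcript, a T was deleted in 1052 of 51130 tags (2.06%, 95% Wilson interval 1.94 to 2.18%). The site at 46358227 had 953 of 37501 tags (2.54%, interval 2.39 to 2.71%), a higher percentage with fewer deletions. Tags can cover both sites, so the intervals are no test of a difference between them. Both sites belong to a cluster, meaning sites within 50 nt of each other, of 11 sites that spans 43 nt and holds 94.3% of the gene's deletions.

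The coverage over this cluster was 31902 to 64005 tags per site, while the deletions per site ranged from 52 to 1052. T was deleted at 3 of the 11 sites and A, C or G at the rest. The poly(A) signal AATAAA, the hexamer that directs cleavage and polyadenylation, was within 25 nt of 10 of them. So was the AUA motif, the A- and U-rich pattern the study gives for RBMS3. It has a central ATA with any base but C and then a weak base (A or T) before it, and a weak base and then an A after it. It was searched on the transcript strand, and a match can itself contain AATAAA. A pair of sites farther upstream, 318 and 322 nt from that end, had 77 of 4425 and 124 of 3876 tags. The pair lay 25 and 29 nt before the end of an annotated nonsense-mediated decay transcript and near no end of a coding transcript. AATAAA began 3 nt downstream of the stronger site. The remaining site was in the 5′UTR, with 19 of 49 tags, the only 5′UTR site among the 123.

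SLC38A1 (SNAT1, another glutamine carrier) lies near SLC38A2, at chr12:46183063-46270017 on the same strand, and had 22 sites, all in the 3′UTR. At the strongest, position 46183091 and 28 nt before the end, a T was deleted in 1031 of 37892 tags (2.72%, interval 2.56 to 2.89%). Its end cluster of 11 sites held 65.8% of the gene's deletions, a lower share than in the other 3 leading genes. Here the signal variant ATTAAA was in 7 windows (25 nt on each side of the deletion) and AATAAA in 3.

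A second cluster of SLC38A1 sat far upstream in the same 3′UTR. Its 7 sites lay 4755 to 4797 nt before the end of the representative transcript and 17 to 59 nt before the end of a shorter annotated coding transcript. The strongest of them had 232 of 11268 tags (2.06%, interval 1.81 to 2.34%), and 963 deletions were summed over the 7. None of the 7 windows held the poly(A) signal, its ATTAAA variant or the AUA motif. Within 25 nt downstream of the site at 46187818, in this cluster, the reference has a run of 8 A. Coverage was 9827 to 12072 tags there, beside 1892 to 39903 at the end. Weaker sites between these clusters, 1672 to 2487 nt from the end, had 10 to 47 deletions each. The third SLC38A gene of this stretch of chromosome 12, SLC38A4 (SNAT4, known mainly from liver), had a single site 8 nt before its end, with 116 of 3895 tags (2.98%, interval 2.49 to 3.56%).

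SLC2A1 (GLUT1, the main glucose carrier of most cultured tumour cells) had more sites than any other transporter, 25, all in the 3′UTR, with 3564 deletions. It lies at chr1:42925353-42958893 on the minus strand. In contrast to SLC38A2, none of these sites was near the end of the representative transcript. A cluster of 21 sites spanning 148 nt, 808 to 955 nt upstream of that end, held 92.7% of the deletions. The strongest site, position 42926266, had a deleted A in 597 of 39237 tags (1.52%, interval 1.41 to 1.65%), and the next, 42926275, a deleted T in 344 of 28183 (1.22%, interval 1.10 to 1.36%).

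The SLC2A1 cluster lay over or within 60 nt upstream of other annotated transcript ends. There were 5 such ends, of which 1 belongs to a coding transcript and the others to retained-intron or nonsense-mediated decay transcripts. Coverage within it was 13124 to 60198 tags. None of the 25 windows of SLC2A1 held AATAAA, 9 held ATTAAA and 16 held the AUA motif, and at the strongest site ATTAAA began 2 nt downstream of the deleted base. T was deleted at 10 of the 21 sites. Nearer to the end, 609 and 623 nt from it, a pair of sites had 129 of 3961 and 73 of 4357 tags. A site 325 nt from the end had the deletion in all of its 26 tags.

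SLC7A11 (xCT, the light chain of the cystine/glutamate exchanger that feeds glutathione synthesis) held the site with the most deletions of any transporter. At position 138164111, 14 nt before the end of the transcript, a T was deleted in 1214 of 35650 tags (3.41%, interval 3.22 to 3.60%). The gene lies at chr4:138164097-138242349 on the minus strand and had 19 sites, 17 in the 3′UTR and 2 in introns. An end cluster of 13 sites held 90.3% of its 3434 deletions, with AATAAA and the AUA motif each in 8 of its windows.

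Of the SLC7A11 sites away from the end, 1 was deep. At 138167173, 3076 nt upstream of the end and near no other annotated end, a T was deleted in 271 of 20626 tags (1.31%, interval 1.17 to 1.48%). Within 25 nt downstream of it the reference has a run of 19 A, which reaches the limit of that stretch and may be longer. Oligo(dT), which was used to capture and prime the RNA, can anneal to such a run, and its part in this site was not tested. A run of 8 or more A was this close at 2 of the 113 transporter 3′UTR sites (1.77%), beside 1.86% of all 3′UTR sites. The other was the SLC38A1 site at 46187818, where its part was not tested either. The other sites of the gene, at 986, 2595 and 5630 nt from the end and in the introns, were covered by 9 to 29 tags.

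**Figure D3:**
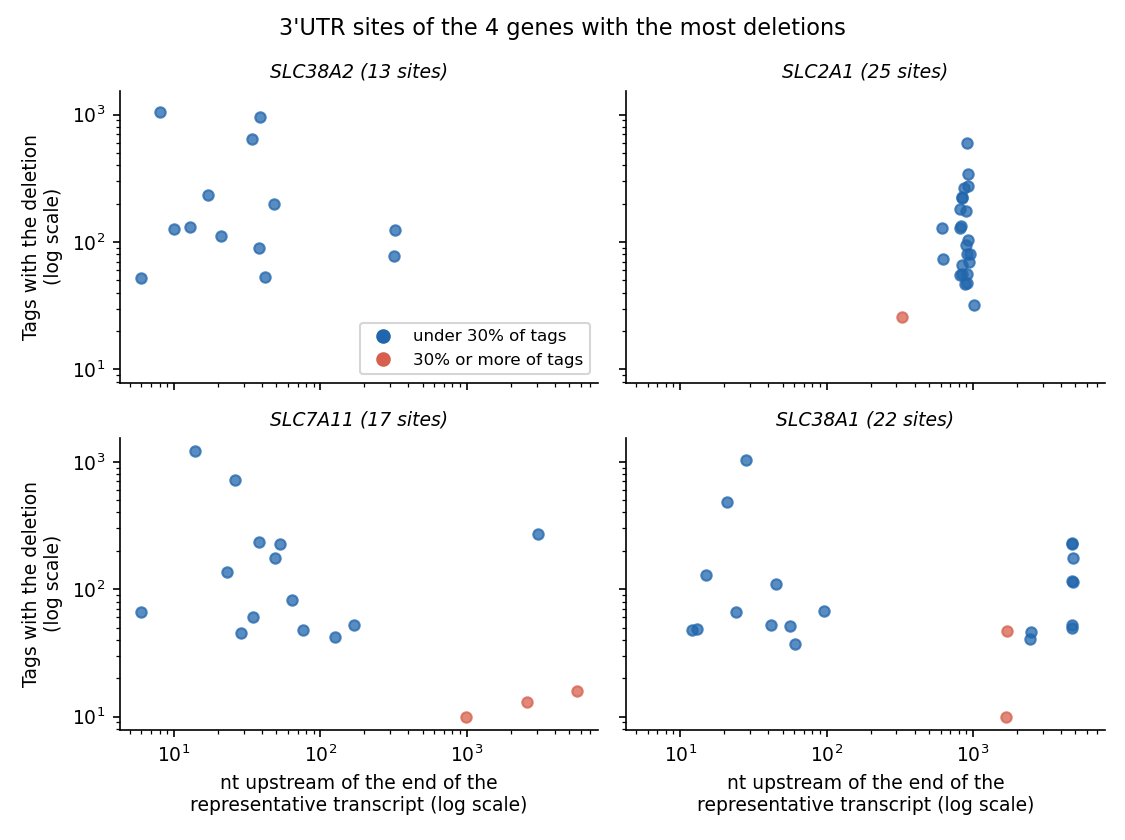
Tags with the deletion (log scale) against the distance in nt upstream of the end of the representative transcript (log scale) for the 3′UTR sites of the 4 genes with the most deletions, 1 point per site. SLC38A2, SLC7A11 and SLC38A1 have their strongest sites 8, 14 and 28 nt from the end, SLC2A1 has its cluster 808 to 955 nt away, and SLC38A1 has a second group at 4755 to 4797 nt.

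The heavy chain SLC3A2 (CD98hc) and its light chains differed in their deletions. SLC7A5 (LAT1, the large neutral amino acid exchanger that pairs with it) had 3 sites within 18 nt, 22 to 39 nt before its end. The strongest had 246 of 8892 tags (2.77%, interval 2.45 to 3.13%). All 3 had a T deleted from a run of 5 or 6, and no window held the AUA motif, the poly(A) signal or its ATTAAA variant. SLC3A2 itself had 54 of 1040 tags with a deleted G (5.19%, interval 4.0 to 6.71%) at a site 3 nt before an annotated end and 58 nt before that of the representative transcript, plus an intronic site with 8 of 8 tags. SLC7A7, another light chain, had 1 intronic site with 14 of 16 tags.

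Of the cationic amino acid carriers, SLC7A1 (CAT1, which imports arginine and lysine) had 8 sites, all in the 3′UTR. At its strongest, 75 nt before the end, a T was deleted in 115 of 2091 tags (5.50%, interval 4.60 to 6.56%). The other 6 sites of that cluster had 41 to 92 deletions and were covered by up to 14460 tags. Within this cluster the percentage was highest where coverage was lowest. SLC7A2 (CAT2), on chromosome 8, had 2 sites with 77 of 1899 and 8 of 8 tags.

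The other glucose carriers had few sites. SLC2A3 (GLUT3, a high-affinity glucose carrier) had 2, with 111 of 2255 tags (4.92%, interval 4.10 to 5.89%) at 8 nt and 37 of 2427 tags at 25 nt from an end, and AATAAA in both windows. SLC2A14 is a close paralog of it, and how tags were divided between the pair was not examined. SLC2A13 (a proton-coupled inositol carrier) had 5 sites, of which 2, at adjacent positions 7 and 8 nt before the end, had 52 of 2385 and 100 of 2534 tags. The remaining 3 rested on 8 to 17 tags, and 1 of them is in a 3′UTR of an alternative transcript only. SLC2A8 and SLC2A12 had 1 site each, with 45 of 45 and 14 of 16 tags. SLC2A4RG, the regulator, had 1 site with 72 of 631 tags (11.4%, interval 9.16 to 14.1%).

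Among the monocarboxylate carriers the lactate exporter SLC16A3 (MCT4) had 1 site with 61 of 6197 tags (0.984%, interval 0.767 to 1.26%). It lay 33 nt before an annotated end and 638 nt before that of the representative transcript, in sequence that is coding in another transcript, and AATAAA began 1 nt downstream of the listed base. SLC16A1 (MCT1, the lactate carrier found in most cells) had no 3′UTR site, only 1 in coding sequence with 10 of 10 tags. SLC16A6 had 102 of 1445 tags (7.06%, interval 5.85 to 8.50%) at 22 nt from its end, and a second site with 27 of 40 tags. SLC16A7 (MCT2) had 52 of 4613 tags at 24 nt from its end and a second site with 7 of 7 tags, and SLC16A4 had 1 site with 10 of 11 tags.

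SLC1A5 (ASCT2, the neutral amino acid exchanger known for glutamine uptake) was the only SLC1A gene with a site. Its single site was covered by 9165 tags, of which 50 carried a deleted A (0.546%, interval 0.414 to 0.718%), 22 nt before an end, and the deleted base lies inside an AATAAA. SLC38A9, a lysosomal amino acid sensor and carrier, had 3 sites, the strongest with 53 of 3384 tags, and SLC38A6 had 2 intronic sites with 12 of 12 and 9 of 9 tags. SLC43A3, a purine nucleobase carrier, had 121 of 4412 tags (2.74%, interval 2.30 to 3.27%) at 30 nt from an end and an intronic site with 7 of 7 tags. Both SLC43A3 sites lie also in an overlapping protein-coding gene model, to which they could equally belong. SLC7A6OS had 1 site with 24 of 30 tags.

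The 123 sites fell into a deep and a shallow class. At 96 sites the deletion was in 0.103 to 14.6% of the tags, and these were covered by 288 to 64005 tags (median 16324.5). At the remaining 27 it was in 32.9% or more, and these were covered by 7 to 143 tags (median 15), 15 of them with the deletion in every tag. All 96 deep sites were in 3′UTRs, against 17 of the 27 shallow ones (63.0%), where 8 were in introns, 1 in coding sequence and 1 in a 5′UTR. Over all protein-coding genes, 97.7% of the sites with the deletion in under 30% of the tags were in 3′UTRs, beside 44.7% of the rest. In the other SLC genes these shares were 98.8% and 53.2%. A difference in this direction was thus general to the listed sites and not particular to the transporters. SLC2A8, SLC2A12, SLC7A6OS, SLC7A7, SLC16A1, SLC16A4 and SLC38A6 had shallow sites only.

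**Figure D4:**
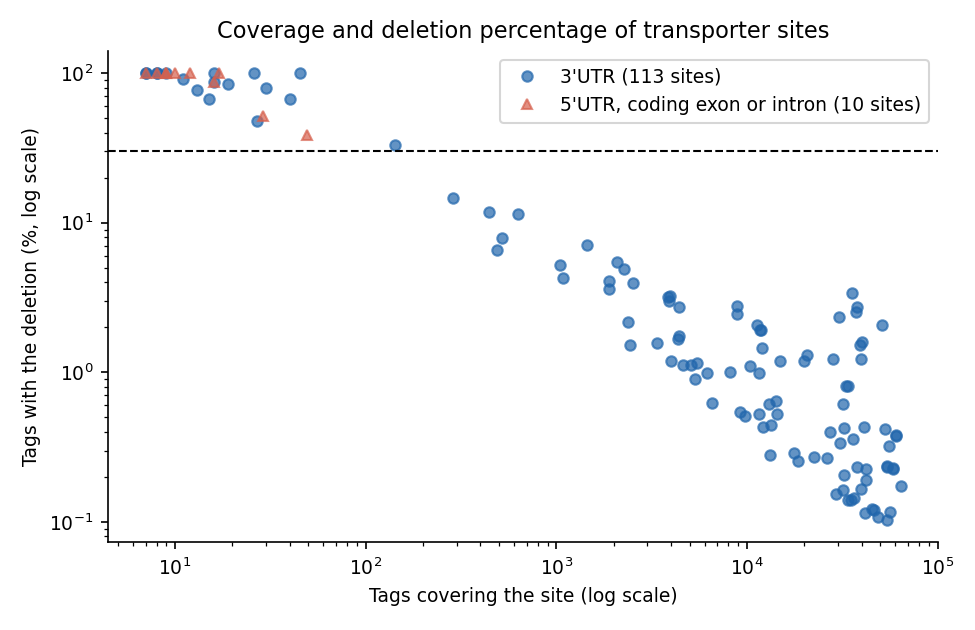
Percentage of tags with the deletion against the tags covering the site (both log scales) for the 113 transporter sites in 3′UTRs (circles) and the 10 elsewhere (triangles), with a dashed line at 30%. All 10 sites outside 3′UTRs lie above the line, and no site lies between 14.6 and 32.9%.

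At the median, transporter sites were more deeply covered than those of other genes. The median site was covered by 10317 tags and had 63 deletions, beside 3602 tags and 57 deletions over the 25045 sites in protein-coding genes. Without the 4 leading genes, the median of the remaining 43 sites was 1899 tags and 50 deletions. In 3′UTRs lay 113 of the 123 sites (91.9%), beside 84.7% over all, and 83.7% without the 4 genes. The median distance to the nearest annotated end downstream was 29 nt (quartiles 17 and 61), beside 34 nt (quartiles 16 and 234) over all 3′UTR sites of protein-coding genes. Without the 4 genes the median was again 29 nt, with quartiles of 20.25 and 228.25, so the narrower spread came with those genes.

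Because the leading genes weigh most in such shares, the features were also compared with 1 site per gene, namely that with the most deletions in the 3′UTR. Of the 22 genes with a 3′UTR site, 20 had that site within 100 nt of an annotated end (90.9%), beside 74.9% of 6371 protein-coding genes and 69.4% of 85 other SLC genes. The exceptions were SLC2A12 and SLC7A6OS. For SLC2A1, SLC2A4RG, SLC2A8 and SLC16A3 the end of the representative transcript was more than 100 nt away. AATAAA or ATTAAA was in the window of 16 of the 22 (72.7%), beside 74.2% over all, and AATAAA alone in 13 (59.1%), beside 59.7%. The AUA motif was in 12 of the 22 windows (54.5%), beside 55.9%. T was the deleted base in 13 (59.1%), beside 75.9% over all and 77.6% in the other SLC genes. With 22 genes, each gene is worth several percentage points, and no test was made.

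Over all 113 sites in 3′UTRs the shares looked different for the poly(A) signal. AATAAA was in 42 windows (37.2%), beside 52.7% of all 3′UTR sites, and AATAAA or ATTAAA in 60 (53.1%), beside 65.4%. The 25 windows of SLC2A1 without AATAAA and the second cluster of SLC38A1 are part of this, and without the 4 leading genes AATAAA was in 18 of 36 windows. The AUA motif was in 54 windows (47.8%), beside 51.7%, and in 19 windows (16.8%) with a match that does not contain AATAAA, beside 15.5%.

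The deleted base was T at 68 of the 113 sites (60.2%), A at 23, C at 12 and G at 10, beside 65.5% T over all. Most T deletions were in runs of T, as the printed sequences show. Only 26 sites had a deleted base that differed from both neighbours, and T was deleted at 5 of those (19.2%), beside 34.6% over all 3473 such sites.

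**Figure D5:**
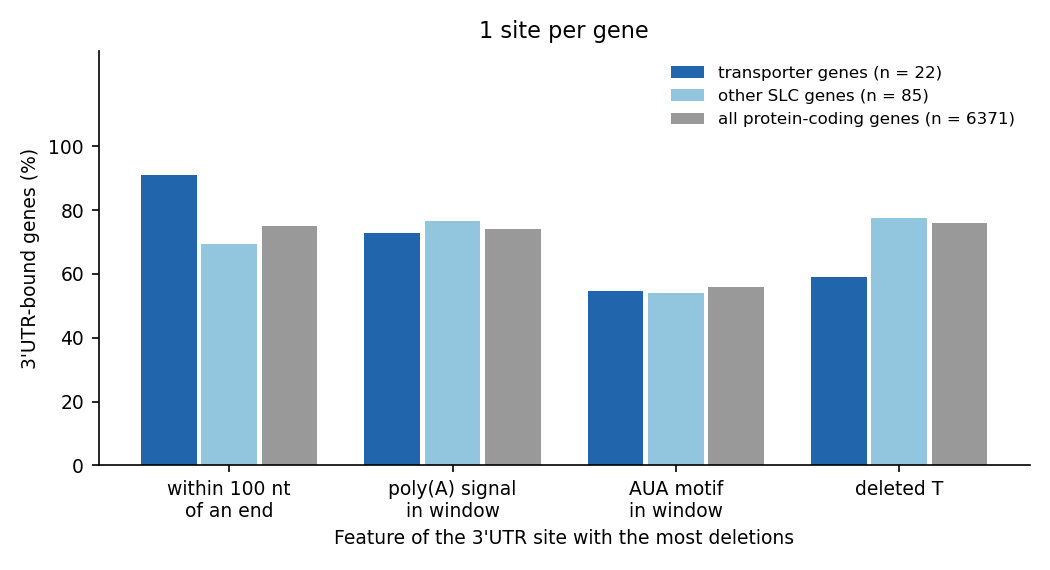
Share of genes (%) whose strongest 3′UTR site was within 100 nt of an annotated end, had AATAAA or ATTAAA within 25 nt, had the AUA motif within 25 nt or had a deleted T, for the 22 transporter genes, 85 other SLC genes and 6371 protein-coding genes with a 3′UTR site. The transporters stand at 90.9% near an end and 59.1% with a deleted T, and within 4 percentage points of the others for both motifs.

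The genes that work with these carriers were examined as a list of 27, of which 20 had a site, beside 37.6% of all protein-coding genes. The list was put together with earlier results of these data known and the RNA levels of its genes were not measured, so the count is a description only. All 3 partner subunits of the monocarboxylate carriers did. NPTN had 455 of 15292 tags (2.98%, interval 2.72 to 3.26%) at its strongest site, BSG (basigin, the chaperone of SLC16A1 and SLC16A3) 317 of 19693 (1.61%, interval 1.44 to 1.80%) and EMB 80 of 4048. These deletion counts exceed those of SLC16A1 and SLC16A3 themselves.

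Of the 13 regulators, 9 had a site (37.6% of all protein-coding genes did). TXNIP, an arrestin-like protein that lowers glucose uptake by removing SLC2A1 from the cell surface and which the study placed downstream of RBMS3, had 776 of 10388 tags (7.47%, interval 6.98 to 7.99%) at its strongest site. HIF1A, the hypoxia factor that induces SLC2A1 and SLC16A3, had 20 sites and 1902 summed deletions. NFE2L2 and ATF4, transcription factors that induce SLC7A11, had 11 and 4 sites, and MYC had 6. NEDD4, NEDD4L, SGK1 and KEAP1 had 5, 4, 1 and 1, the last in an exon outside the UTRs, and ARRDC4, MLXIP, MLXIPL and PPARGC1A had none. Of the 11 enzymes that act on the carried substrates, 8 had a 3′UTR site (31.8% of all protein-coding genes did). By deletions at the strongest site, HK1 (509 of 11070 tags) and LDHA (342 of 31181) led. Summed over sites, LDHB had more deletions (775) than LDHA (591) and HK1 (552). Others were LDHB (211 of 14273), SHMT2, PSAT1, PHGDH and GCLC, and there was none in HK2, GLUL or ASNS.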

How the data were processed

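The deposited list gives, for each site, 2 counts: pooled unique tags that cover it and tags that carry the deletion. Per the study's methods, the authors appended molecular identifiers to the reads, aligned them to hg38 and called deletion sites with the CLIP Tool Kit, version not given in the sources used here, with filters on false discovery rate and on a fold not defined further. The site name, read as other text, holds both counts as the authors wrote them. The replicates were pooled before calling, so neither replicates nor library depth could be compared. RNA was tailed and primed with oligo(dT), and natural poly(A) tails can be primed too.

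The deleted base was taken as the centre of each 21-nt interval. The list held 27706 sites, 25045 of them in protein-coding genes on the same strand. Sites were placed on GENCODE release 44, all transcripts, with 3′UTRs taken first and introns last. Distances run to the nearest annotated transcript end downstream in the gene, windows have 25 nt on each side, and clusters join sites within 50 nt. Members and lists were chosen with earlier results of these data known. The text names 11 carriers known in tumour cells and the 20 members with the most summed deletions in full, other members with a site by their counts, and the rest by family. A few genes of these lists are not reported here by name. The functions were tested on simulated data. The tools were samtools 1.23.1, Python 3.11.15, scipy 1.17.1, matplotlib 3.10.9, pysam 0.24.0 and numpy 2.4.6.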

Additional observations from a re-analysis of the deposited data

How the results depend on the processing

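Of 57 values under alternative settings, 31 stayed within 1.5 times (counts) or within the 95% interval of the main value (shares, median distance), and 26 did not. These intervals treat sites as independent, although 4 genes hold 80 of the 123 sites. The settings also reuse the same sites, so the split is a description and no measure of stability. The number of genes with a site was 18 to 25 under every setting except the opposite strand, which gave 4 genes, and 2 with a 3′UTR site. With at least 20 deletions per site the share was 30.3%, beside 32.2% of all protein-coding genes. With at least 50 it was 27.3%, beside 24.8%. For deletions in at least 10% of tags it was 30.3%, beside 23.1%, and for under 30% of tags 27.3%, beside 29.1%. No share over all genes was computed for the opposite strand. Sites with deletions in at least 10% of tags gave 14 of the 66 genes with a 3′UTR site, beside 2717 of all 20046 protein-coding genes. For these sites 66.7% were in 3′UTRs and the median distance was 1435.5 nt. AATAAA was in 15.0%, the AUA motif in 15.0% and a T was deleted in 85.0%. The 3′UTR share was 100% for sites of at least 20 or at least 50 deletions and for those with deletions in under 30% of tags. With 1 site per cluster, 80% of sites were in 3′UTRs, the median distance was 67 nt, the AUA motif was in 35.0% and T was deleted at 72.5%. With at least 50 deletions the AUA motif was in 57.3%. Distances to the end of the representative transcript had a median of 96 nt. Windows of 10 nt gave 16.8% for AATAAA and 15.9% for the AUA motif, and windows of 50 nt gave 47.8% and 65.5%. AATAAA or ATTAAA gave 53.1%, and AUA matches without AATAAA gave 16.8%. Deleted bases that differed from both neighbours were T at 19.2%. In settings chosen after seeing the data, leaving out the 4 genes with the most deletions gave 83.7% of sites in 3′UTRs and AATAAA in 50%, and leaving out the 2 genes that are not transporters gave 23 with a site. The causes were not tested. No paired analysis was possible because the only group had its replicates pooled before calling, and for the same reason no replicate could be left out.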

Other observations

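Some sites lay on the opposite strand of a transporter or just outside it and were not counted for it. The body of SLC16A3 overlaps 3 sites of CSNK1D, the strongest with 100 of 3740 tags, and that of SLC3A1 overlaps 3 sites of PREPL, the strongest with 58 of 569 tags. The body of SLC2A12 overlaps 1 site of TBPL1 (24 of 24 tags), and that of SLC7A6 overlaps the SLC7A6OS site (24 of 30 tags). A site with 11 of 13 tags lay 11 nt downstream of the annotated end of SLC3A2, on its strand and in no gene.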
